A study of Mus musculus with 6 samples.

Results

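The genes described here are those of the TIGIT axis, with 3 further inhibitory receptors of lymphocytes: Tigit, Cd226, Cd96, Pvr, Nectin2, Nectin3, Lag3, Havcr2 and Btla. They are 9 of the 57462 genes listed for each tumour, found by gene name, and each name occurred once. RNA sequencing covered 6 tumours of HM1 cells, an established line of mouse ovarian cancer. In 3 tumours the genotype was ST3GAL3 knockdown (shST3GAL3), by a short hairpin RNA against the sialyltransferase ST3GAL3, and in 3 it was given as wild type (shControl). All came from an early tumour model. The number of hairpins or clones, the host strain, its age and the tumour site are not given in the labels, and nothing in the labels says that the tumours of a group grew in separate mice, so the spread between samples may be technical. The genes were chosen by the TPM values of this same comparison, in which Tigit had stood out, so the differences between the groups are a description and support no claim.

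TIGIT restrains T cells and NK cells. It competes with the activating receptor CD226 (DNAM-1) and with CD96 for shared ligands on tumour and antigen-presenting cells, the poliovirus receptor PVR (CD155) and the nectins, which otherwise serve as adhesion molecules. LAG3, TIM-3 (Havcr2) and BTLA are inhibitory receptors with other ligands, and together with TIGIT they mark T cells exposed to antigen for a long time.

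Levels are in TPM (transcripts per 1000000), which allows for the length of each gene and sums to the same total in every library, so that genes can be set beside each other. Between 13930 and 14762 genes per library reached 1 TPM, and 14207 genes with at least 1 TPM in 3 or more libraries were tested. The targeted gene St3gal3 stood at 8.44, 6.77 and 7.49 TPM in shST3GAL3 tumours 1, 2 and 3, against 14.03, 13.84 and 13.79 TPM in shControl tumours 1, 2 and 3. The groups did not overlap and the direction fits the labels (log2 fold change -0.80, SE 0.11, limma adjusted p = 0.348). The keratin genes Krt8, Krt18 and Krt19 were abundant in every tumour, while the epithelial markers Epcam and Krt7 were at or below 1.17 and 0.85 TPM. The library shST3GAL3 1 stood apart. Its 6 fibroblast markers summed to 4435 TPM, against 1192 and 859.9 TPM in shST3GAL3 2 and 3 and between 444.8 and 715.3 TPM in the shControl tumours. Its 6 epithelial markers summed to 1765 TPM, against 2684 and 3193 TPM in shST3GAL3 2 and 3. In the shControl tumours they summed to between 3193 and 3673 TPM. Krt8, Krt18 and Krt19 made up nearly all of these sums. Cdh1 (9.46 TPM) and Epcam (1.17 TPM) were instead highest in shST3GAL3 1. Without this library the log2 fold changes of the 9 genes, described below, were 0.57 for Tigit, 0.80 for Cd226, 0.47 for Cd96, -0.03 for Pvr, -0.11 for Nectin2, -0.01 for Nectin3, 0.59 for Lag3, 0.38 for Havcr2 and 0.06 for Btla.

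Tigit itself (ENSMUSG00000071552, chromosome 16) stood at 27.95, 27.39 and 26.21 TPM in shST3GAL3 tumours 1, 2 and 3, against 17.78, 18.82 and 16.7 TPM in shControl tumours 1, 2 and 3. Every shST3GAL3 tumour lay above every shControl tumour, and the 3 values of each group lay close together. The means were 27.2 ± 0.888 TPM in shST3GAL3 and 17.8 ± 1.06 TPM in shControl tumours (SD, n = 3 each), a ratio of 1.53. On the log2(TPM + 1) scale the fold change was 0.59 (SE 0.08, limma adjusted p = 0.38), so Tigit did not pass the test. The p of Tigit had rank 9 among the 14207 genes. The same comparison served to choose the gene, so this rank supports no claim. The size of the difference was not extreme, at percentile 92.1 of all tested genes. The spread within groups was small, an SD of 0.066 on the log2 scale (percentile 7.39), against a median of 0.17 over all tested genes. The level of Tigit is uncertain, since 13.9% of its transcript matches other genes, as described below. Comparisons of its level with that of other genes share this limit.

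**Figure D1:**
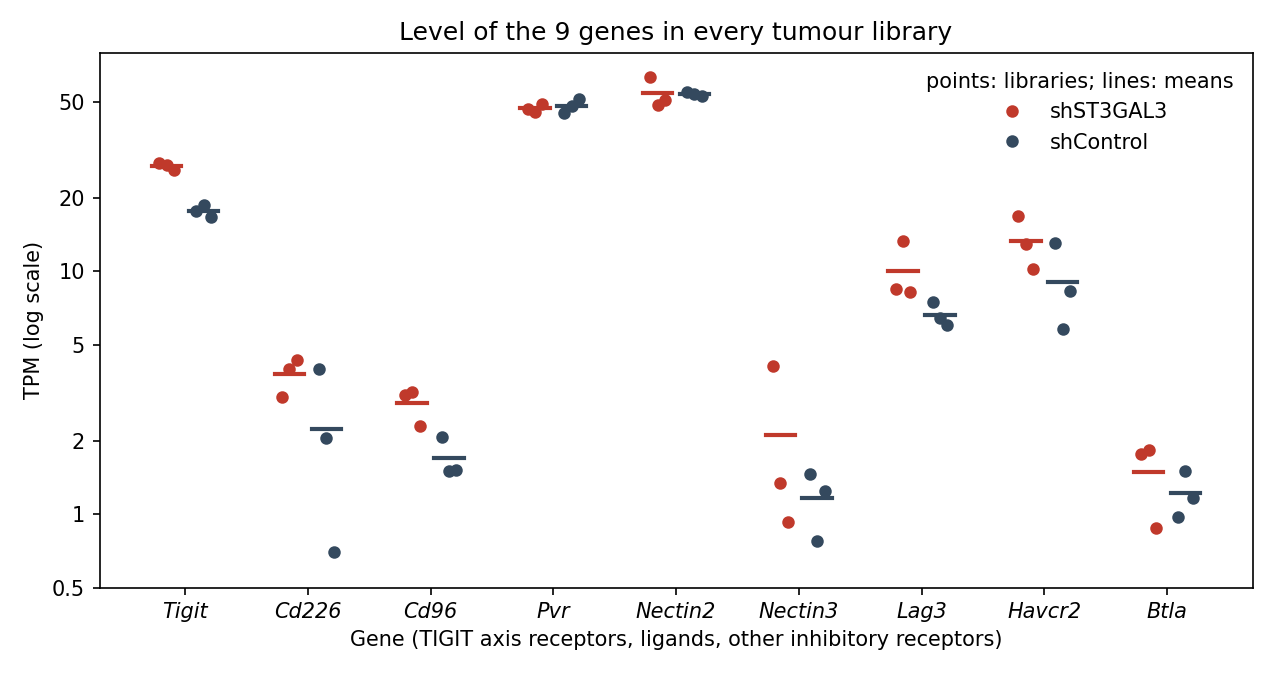
TPM of each of the 9 genes (log axis) in the 3 shST3GAL3 libraries (red, left) and the 3 shControl libraries (dark, right), with points for libraries and horizontal lines for group means. Tigit, Cd96 and Lag3 have no overlap between the groups, and Pvr and Nectin2 lie near 50 TPM in both.

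The rival receptors of TIGIT were listed at far lower levels than Tigit, whose own level is uncertain. Cd226, the activating receptor, stood at 3.03, 3.95 and 4.34 TPM in shST3GAL3 tumours 1, 2 and 3, against 3.98, 2.07 and 0.7 TPM in shControl tumours 1, 2 and 3. The shST3GAL3 tumours were alike, while the shControl tumours spread widely and shControl 1 lay among the shST3GAL3 values. Its log2 fold change was 0.68 (SE 0.38). It was 0.28 without shControl 3, the library with the lowest value, and 1.05 without shControl 1. Cd96, whose product binds the same ligand and is inhibitory in mouse NK cells, stood at 3.09, 3.19 and 2.31 TPM in shST3GAL3 tumours 1, 2 and 3, against 2.08, 1.51 and 1.53 TPM in shControl tumours 1, 2 and 3. The groups did not overlap, although shST3GAL3 3 and shControl 1 were close. The means were 2.86 ± 0.482 TPM in shST3GAL3 and 1.71 ± 0.323 TPM in shControl tumours (SD, n = 3 each), with a log2 fold change of 0.51 (SE 0.18).

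Tigit and Cd96 lie on chromosome 16 together with Btla and Nectin3, 4 of the 9 genes, and Pvr and Nectin2 lie on chromosome 7, in GENCODE M21, which is on the build GRCm38 while the authors' build was GRCm39. Promoter sequences were found for 6 of the 9 genes in RefSeq (GRCm38.p6). Those of Tigit and Cd96 are shown because they belong to the pair of TIGIT axis receptors without overlap between the groups, and that of Nectin2 as the promoter of a ligand with nearly equal group means. Each runs from 250 bases before to 50 bases after the start site, 5′ to 3′ on the minus strand: Tigit at chr16:43664135-43664434, Cd96 at chr16:46120199-46120498 and Nectin2 at chr7:19749524-19749823. Capitals mark matches, on either strand, to the RUNX site TGTGGT, the T-box core TCACAC, the AP-1 site TGANTCA, the NFAT core TGGAAA and the interferon-gamma-activated (GAS) element TTCNNNGAA.
Tigit: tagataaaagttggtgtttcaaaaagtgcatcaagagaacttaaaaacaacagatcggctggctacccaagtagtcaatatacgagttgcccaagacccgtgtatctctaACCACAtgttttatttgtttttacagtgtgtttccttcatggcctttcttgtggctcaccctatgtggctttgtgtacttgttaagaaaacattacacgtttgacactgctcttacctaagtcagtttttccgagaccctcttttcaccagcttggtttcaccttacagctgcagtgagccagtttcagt
Cd96: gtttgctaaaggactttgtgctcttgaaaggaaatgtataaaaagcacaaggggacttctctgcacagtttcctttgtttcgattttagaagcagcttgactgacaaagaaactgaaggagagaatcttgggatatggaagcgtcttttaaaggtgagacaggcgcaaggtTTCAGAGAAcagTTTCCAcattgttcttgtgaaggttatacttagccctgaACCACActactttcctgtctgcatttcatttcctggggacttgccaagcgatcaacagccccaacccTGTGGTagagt
Nectin2: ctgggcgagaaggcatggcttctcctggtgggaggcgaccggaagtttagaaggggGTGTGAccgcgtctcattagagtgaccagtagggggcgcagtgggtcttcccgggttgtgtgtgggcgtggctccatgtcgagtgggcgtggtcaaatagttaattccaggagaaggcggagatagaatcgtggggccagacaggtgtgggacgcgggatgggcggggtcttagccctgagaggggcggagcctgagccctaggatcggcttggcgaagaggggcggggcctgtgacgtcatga
The only match in the Tigit promoter was 1 RUNX site, at position -140 from the start site. The Cd96 promoter held 2 RUNX sites, 1 GAS element and 1 NFAT core, and the Nectin2 promoter held 1 T-box core. Havcr2 and Btla, the other receptor genes with a promoter in the table, each held 1 RUNX site, with 1 AP-1 site in Havcr2 and 2 T-box cores in Btla, and Nectin3 held no match to any of the 5 motifs. No matches overlapped in the 3 promoters shown. Of 27025 promoters of the same length, 16.9% held the RUNX site, 8.47% the GAS element, 21.5% the NFAT core, 14.4% the T-box core and 7.93% the AP-1 site, so these letters are common and the matches are a description only.

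The ligand genes Nectin2 and Pvr were the most abundant of the 9, and the group means of each were nearly equal. Pvr, which encodes the main ligand of TIGIT, stood at 46.48, 45.43 and 48.7 TPM in shST3GAL3 tumours 1, 2 and 3, against 44.75, 48.0 and 51.21 TPM in shControl tumours 1, 2 and 3. The ranges overlapped, and the log2 fold change was -0.03 (SE 0.08), with 0.02 without shControl 3. Nectin2, which encodes a weaker ligand of TIGIT (CD112), stood at 63.25, 48.47 and 50.97 TPM in shST3GAL3 tumours 1, 2 and 3, against 54.55, 53.95 and 52.63 TPM in shControl tumours 1, 2 and 3. The shControl values were tight, and shST3GAL3 1 was above them while shST3GAL3 2 and 3 were below. The log2 fold change was 0.00 (SE 0.11), and its sign turned with median-ratio scaling, with quantile normalization, with library weights and without shST3GAL3 1 or shControl 3, so no direction can be given. Nectin3, an adhesion molecule that also binds PVR, stood at 4.08, 1.35 and 0.93 TPM in shST3GAL3 tumours 1, 2 and 3, against 1.46, 0.78 and 1.25 TPM in shControl tumours 1, 2 and 3. Its higher mean rested on shST3GAL3 1, the library with the highest fibroblast markers. A log2 fold change of 0.41 (SE 0.38) became -0.01 without that library, and 0.69 without shST3GAL3 3. The 3 ligands summed to 113.8, 95.25 and 100.6 TPM in shST3GAL3 tumours 1, 2 and 3, against 100.8, 102.7 and 105.1 TPM in shControl tumours 1, 2 and 3. The sum thus overlapped between the groups, with means of 103 ± 9.55 TPM in shST3GAL3 and 103 ± 2.17 TPM in shControl tumours (SD, n = 3 each).

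Of the other inhibitory receptors, Lag3 (a receptor for MHC class II) stood at 8.43, 13.37 and 8.2 TPM in shST3GAL3 tumours 1, 2 and 3, against 7.5, 6.41 and 6.03 TPM in shControl tumours 1, 2 and 3. The groups did not overlap, and shST3GAL3 2 was well above the others. Lag3 averaged 10.0 ± 2.92 TPM in shST3GAL3 and 6.65 ± 0.763 TPM in shControl tumours (SD, n = 3 each). On the log2 scale the difference was 0.50 (SE 0.20), and 0.29 without shST3GAL3 2. Havcr2, which encodes TIM-3, a receptor of T cells and also of macrophages and dendritic cells, stood at 16.89, 13.01 and 10.21 TPM in shST3GAL3 tumours 1, 2 and 3, against 13.1, 5.78 and 8.32 TPM in shControl tumours 1, 2 and 3. The ranges overlapped through shControl 1. The log2 fold change was 0.55 (SE 0.29), with 0.30 without shControl 2 and 0.83 without shControl 1. Btla, a receptor of B and T cells that binds HVEM, was low throughout, at 1.78, 1.84 and 0.88 TPM in shST3GAL3 tumours 1, 2 and 3, against 0.98, 1.51 and 1.17 TPM in shControl tumours 1, 2 and 3. The lowest value of all was that of shST3GAL3 3, and the log2 fold change was 0.15 (SE 0.23). Leaving out single libraries gave between 0.05 (without shST3GAL3 2) and 0.35 (without shST3GAL3 3). The B cell marker Ms4a1 was at or below 0.32 TPM in every library and listed at 0 in some.

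All 9 genes passed the filter on low values. In the limma fit over all genes 0 of the 9 passed an adjusted p of 0.05 (adjusted p between 0.38 and 0.989), where 1 of the 14207 genes did (0.00704%), a lower one, and 0 higher ones (0.0%). At an unadjusted p under 0.05 there were 3 higher among the 9 (Tigit, Cd96 and Lag3) and 0 lower, against 9.19% higher and 3.78% lower over all tested genes. The groups did not overlap for the same 3 of 9, all higher, where 15.7% of all tested genes lay above and 7.76% below. Positive log2 fold changes were found for 8 of the 9, and for 52.7% of all tested genes. Nothing is read from these counts, since the comparison served to choose the genes. The median log2 fold change was 0.53 over the 6 receptor genes and 0.00 over the 3 ligand genes, beside 0.01 over all tested genes. It was 0.62 over the 12 T cell markers and 0.54 over the 8 macrophage markers described below, so the receptor median is not particular to these genes. The 6 receptor values kept a positive sign in each alternative fit in which they were tested, with a median between 0.45 and 0.61. The difference between the receptor and the ligand genes was not tested.

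**Figure D2:**
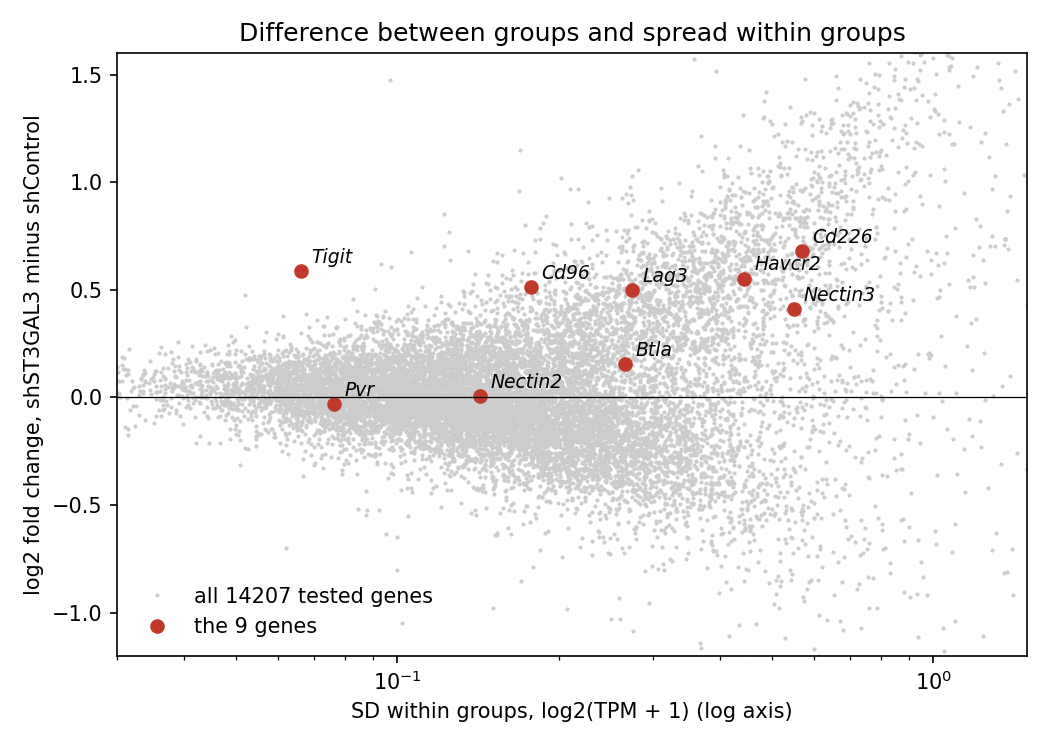
Log2 fold change (shST3GAL3 minus shControl) against the SD within groups on the log2(TPM + 1) scale (log axis) for the tested genes (grey, 217 of them beyond the axes) and the 9 genes (red). Tigit sits at 0.59 with an SD of 0.066, left of the other receptor genes with like fold changes.

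Ordered by their mean over all 6 libraries, the levels ran Nectin2 (53.97 TPM), Pvr (47.43), Tigit (22.48), Havcr2 (11.22), Lag3 (8.32), Cd226 (3.01), Cd96 (2.29), Nectin3 (1.64) and Btla (1.36). Pvr and Tigit were separated by the ranges of all 6 libraries, as were Lag3 and Cd226. Tigit was above Havcr2 in 6 of 6 libraries, with ranges apart within each group. Nectin2 was above Pvr in 6 of 6 libraries, with ranges apart in the shControl tumours and overlapping in the shST3GAL3 tumours. Havcr2 and Lag3, Cd226 and Cd96, and Nectin3 and Btla each overlapped in both groups and kept the same order in 4 of 6 libraries. Cd96 and Nectin3 had ranges apart in the shControl tumours alone. Tigit made up 45.7%, 43.6% and 50.3% of the summed TPM of the 6 receptors in shST3GAL3 tumours 1, 2 and 3, against 39.1%, 52.1% and 48.5% in shControl tumours 1, 2 and 3. The sum of the 6 receptors was 61.17, 62.75 and 52.15 TPM in shST3GAL3 tumours 1, 2 and 3, against 45.42, 36.1 and 34.45 TPM in shControl tumours 1, 2 and 3. The receptor sum includes Tigit, by whose values the genes were chosen and whose level is uncertain. Without Tigit the other 5 receptors summed to 33.22, 35.36 and 25.94 TPM in shST3GAL3 tumours 1, 2 and 3, against 27.64, 17.28 and 17.75 TPM in shControl tumours 1, 2 and 3. That sum overlapped between the groups, as did the share that was Tigit.

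Within the shST3GAL3 group Tigit was far more even than the T cell receptor genes. Tigit had stood out in this same comparison, and a small spread within groups helps a gene to do so. Its evenness is thus a description and supports no claim. The mean of Cd3d, Cd3e and Cd3g, subunits of the T cell receptor complex, was 15.7, 17.7 and 7.55 TPM in shST3GAL3 tumours 1, 2 and 3, against 11.4, 7.52 and 7.52 TPM in shControl tumours 1, 2 and 3. In shST3GAL3 3 the CD3 level was thus that of shControl 2 and 3, whereas Tigit was as high there as in shST3GAL3 1 and 2. The ratio of Tigit to the CD3 mean was 1.78, 1.55 and 3.47 in shST3GAL3 tumours 1, 2 and 3, against 1.56, 2.5 and 2.22 in shControl tumours 1, 2 and 3. The groups overlapped, with the highest ratio in shST3GAL3 3 and the lowest in shST3GAL3 2. The ratio averaged 2.27 ± 1.05 in shST3GAL3 and 2.10 ± 0.484 in shControl tumours (SD, n = 3 each), a ratio of 1.08 between the group means. With Cd2, Trac and Trbc2 in place of the CD3 genes the ratio of the group means was 0.896. It was 0.793 without shST3GAL3 3 and 0.959 without shControl 1 with the CD3 genes, so no direction can be given. In a bulk tumour, fewer cells of a type and less RNA per cell cannot be told apart.

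**Figure D3:**
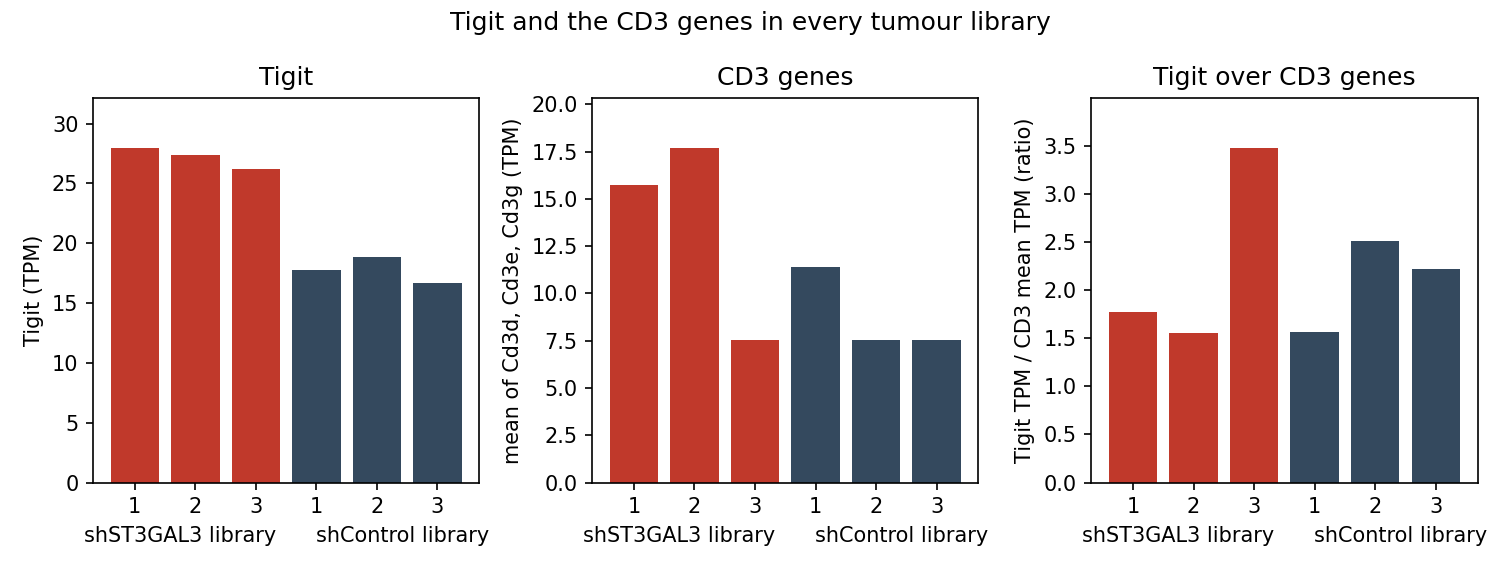
TPM of Tigit, mean TPM of Cd3d, Cd3e and Cd3g, and the ratio of the first to the second, as bars for each of the 3 shST3GAL3 (red) and 3 shControl libraries (dark). Tigit is even within each group, the CD3 mean is low in shST3GAL3 3 (7.55 TPM), and the ratio overlaps between the groups.

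Tigit, whose level is uncertain, was listed above most T cell marker genes. Of 12 T cell markers, 2, 2 and 0 had a higher TPM than Tigit in shST3GAL3 tumours 1, 2 and 3, and 1, 0 and 2 did in shControl tumours 1, 2 and 3. The 12 T cell markers summed to between 91.1 and 188.5 TPM in shST3GAL3 and between 76.09 and 108.5 TPM in shControl tumours, and all 12 had positive log2 fold changes, 6 of them without overlap, where 52.7% of all tested genes were positive and 15.7% lay above without overlap. Of those 6, Cd28 stood at 0.99, 0.83 and 1.11 TPM in shControl tumours 1, 2 and 3. It passed the filter on low values only through its shST3GAL3 values, so its sign and lack of overlap add nothing. The 5 NK cell markers summed to between 5.51 and 12.45 TPM in shST3GAL3 and between 4.68 and 6.2 TPM in shControl tumours. The 2 CD8 genes summed to between 11.57 and 22.66 TPM in shST3GAL3 and between 8.41 and 13.62 TPM in shControl tumours. The 6 markers of CD4 and regulatory T cells, many of which carry TIGIT, summed to between 20.01 and 49.32 TPM in shST3GAL3 tumours. In shControl tumours they summed to between 10.74 and 11.86 TPM. The 4 of them that were tested lay above without overlap (15.7% of all tested genes). Among these, Foxp3 was at 0.97 TPM in shControl 3 and would not have passed the filter without shST3GAL3 values. Of 6 B cell markers only Cd79b was tested, at 3.26, 1.33 and 1.01 TPM in shST3GAL3 tumours 1, 2 and 3, against 0.34, 0.38 and 0.54 TPM in shControl tumours 1, 2 and 3, and it passed the filter on low values only through the shST3GAL3 tumours. Markers of other cells were mostly higher in shST3GAL3 tumours too: positive log2 fold changes were found for 8 of 8 macrophage, 6 of 6 dendritic cell, 4 of 4 mast cell, 6 of 6 fibroblast, 5 of 5 endothelial and 4 of 4 erythroid markers, and for 1 of 4 tested epithelial markers, beside 52.7% of all tested genes. The median ranged from 0.47 (dendritic cell) to 1.61 (fibroblast) over these lists, and was -0.38 for the epithelial one. The dendritic cell marker Flt3 passed the filter on low values only through the shST3GAL3 tumours, so its positive sign adds nothing. The 4 skeletal muscle markers summed to 2.35, 301.9 and 52.48 TPM in shST3GAL3 tumours 1, 2 and 3, against 77.57, 0.74 and 12.14 TPM in shControl tumours 1, 2 and 3, so shST3GAL3 2 stood apart on muscle genes and the groups overlapped. Marker levels of many cell types were thus higher in shST3GAL3 tumours alongside the receptors, none past the test, and the part of this in the receptors' values was not tested.

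In GENCODE M21 no other gene overlaps Tigit. Its protein-coding neighbours were low, with Zbtb20 at 2.36, 1.99 and 2.38 TPM in shST3GAL3 tumours 1, 2 and 3, against 1.99, 2.41 and 2.72 TPM in shControl tumours 1, 2 and 3, and Drd3 listed at 0 in all. The only coding transcript of Tigit there has 919 bases, the length in the files, and its last 128 bases (positions 792 to 919, 13.9% of the transcript) matched transcripts of 605 other genes at 90% identity or more over at least 50 bases. Reads from this stretch may have been divided among such transcripts in the authors' estimation, so the level of Tigit is reported as uncertain, and the part of this stretch in its values was not tested. Matches of the same kind covered 5.75% of the Lag3 transcript (438 other genes) and 3.53% of that of Havcr2 (1519 other genes). They covered 2.17% of the Cd226 transcript (2 other genes), and none were found for Cd96, Pvr, Nectin3 or Btla. For Nectin2 a match of 139 bases was to 1 other gene, and Gm20512 overlaps exons of Nectin2 in GENCODE M21. No source used here gives the strand setting, so reads of Nectin2 and of an overlapping gene may not be told apart there.

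Set against each other, Tigit was 9.22, 6.93 and 6.04 times Cd226 in shST3GAL3 tumours 1, 2 and 3, against 4.47, 9.09 and 23.9 times in shControl tumours 1, 2 and 3. The shST3GAL3 ratios lay within the range of the shControl ratios, whose highest value came from the low Cd226 of shControl 3. The ratio of the group means was 0.593, and 1.09 without shControl 3. Tigit was 9.05, 8.59 and 11.3 times Cd96 in shST3GAL3 tumours 1, 2 and 3, against 8.55, 12.5 and 10.9 times in shControl tumours 1, 2 and 3. This ratio was the steadier of the pair and overlapped between the groups. Per unit of the CD3 mean, Lag3 stood at 0.535, 0.756 and 1.09 in shST3GAL3 tumours 1, 2 and 3, against 0.659, 0.853 and 0.802 in shControl tumours 1, 2 and 3, and Cd96 at 0.196, 0.180 and 0.306 in shST3GAL3 tumours 1, 2 and 3, against 0.183, 0.201 and 0.204 in shControl tumours 1, 2 and 3. For Lag3 and Cd96 too, shST3GAL3 3 had the highest ratio to the CD3 genes, and the groups overlapped. These ratios share the CD3 mean, which was low in shST3GAL3 3 (7.55 TPM), so they are not separate observations. In shST3GAL3 3 the ratio was also highest for Cd226 (0.575) and Havcr2 (1.35). It was not for Btla, at 0.117 there against 0.201 in shControl 2. Lag3 over the mean of the CD8 genes Cd8a and Cd8b1 was 0.951, 1.18 and 1.42 in shST3GAL3 tumours 1, 2 and 3, against 1.10, 1.47 and 1.43 in shControl tumours 1, 2 and 3, again with overlap. Havcr2 over the macrophage gene Csf1r was 0.108, 0.135 and 0.149 in shST3GAL3 tumours 1, 2 and 3, against 0.230, 0.0926 and 0.210 in shControl tumours 1, 2 and 3. The shControl values of this ratio spread around those of the shST3GAL3 tumours, and the 8 macrophage markers summed to between 1242 and 2202 TPM in shST3GAL3 and between 1053 and 1245 TPM in shControl tumours. The ratios in this paragraph other than those to Cd226 and Cd96 were chosen after the values were seen.

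Among the 5 genes with the profile most like that of Tigit over the 6 libraries were Cfap126, Gstp3, H2-Ob and Sorbs2, by the root mean square difference of their centred log2(TPM + 1) values among 12225 named genes. For these 4 the difference was between 0.0755 (Cfap126) and 0.0996 (Sorbs2) on the log2 scale. Cfap126 encodes a protein of cilia, Gstp3 a glutathione transferase, H2-Ob a subunit of an MHC class II accessory protein, and Sorbs2 an adaptor of the cytoskeleton. H2-Ob passed the filter on low values only through the shST3GAL3 tumours. All 4 were low, between 1.32 TPM (H2-Ob) and 4.54 TPM (Sorbs2) on average in shST3GAL3 tumours and between 0.493 TPM (H2-Ob) and 2.77 TPM (Cfap126) in shControl tumours. Among the other 8 genes of the axis, Cd96 was most like Tigit (0.14, rank 98 of the tested genes), then Lag3 (0.22, rank 1337), and Cd226 was least like it (0.45, rank 11092). The profile of Tigit is mostly its difference between the groups (0.59, with an SD of 0.066 within groups). Likeness to it thus mostly ranks genes by a like difference in the same comparison, and it supports no link between the genes.

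Partners of LAG3, TIM-3 and BTLA were mostly higher in shST3GAL3 tumours. Of 12 listed genes 10 were tested, 0 passed the limma test over all genes, and 6 higher and 1 lower had an unadjusted p under 0.05, where 9.19% of all tested genes were higher and 3.78% lower at that p. The median log2 fold change was 0.63, against 0.01 over all tested genes, and 0.46 without shST3GAL3 1. H2-Ab1, an MHC class II gene and thus part of the ligand of LAG3, averaged 604 ± 193 TPM in shST3GAL3 and 312 ± 61.1 TPM in shControl tumours (log2 fold change 0.91, SE 0.27, n = 3 each). Tnfrsf14, which encodes HVEM, the ligand of BTLA, averaged 27.8 ± 7.11 TPM in shST3GAL3 and 16.0 ± 0.202 TPM in shControl tumours (0.73, SE 0.17). It stood at 35.68, 26.05 and 21.81 TPM in shST3GAL3 tumours 1, 2 and 3, against 16.0, 16.25 and 15.85 TPM in shControl tumours 1, 2 and 3, so all 3 shST3GAL3 values were above a tight shControl group. Tnfsf14 (LIGHT), another partner of HVEM, averaged 4.19 ± 1.82 TPM in shST3GAL3 and 2.13 ± 0.420 TPM in shControl tumours. Of the proposed partners of TIM-3, Lgals9 (galectin-9) averaged 99.2 ± 17.5 TPM in shST3GAL3 and 70.7 ± 3.64 TPM in shControl tumours (0.47, SE 0.13), with no overlap. Ceacam1, another, averaged 29.5 ± 5.59 TPM in shST3GAL3 and 39.8 ± 5.645 TPM in shControl tumours (-0.43, SE 0.17), with all 3 shST3GAL3 values below. Hmgb1 averaged 226 ± 49.96 TPM in shST3GAL3 and 278 ± 12.9 TPM in shControl tumours (-0.32, SE 0.16), with overlap. The partners of TIM-3 thus lay on opposite sides, though none passed the test. Fgl1, another ligand of LAG3, was at or below 0.2 TPM in every library.

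Among relatives of the nectins, and receptors for them, 5 of 7 listed genes were tested, 0 passed and 0 had an unadjusted p under 0.05, beside 9.19% higher and 3.78% lower over all tested genes, with a median log2 fold change of 0.34. Leaving out 1 shST3GAL3 library took Nectin1 below the filter and left 4 tested genes, with a median of 0.12 without shST3GAL3 1, 0.03 without shST3GAL3 2 and 0.09 without shST3GAL3 3. The median was 0.15 without shControl 2. Pvrig, a further receptor of nectin-2, averaged 2.98 ± 1.12 TPM in shST3GAL3 and 2.09 ± 0.691 TPM in shControl tumours (0.35, SE 0.29). Nectin1 stood at 3.74, 1.22 and 1.09 TPM in shST3GAL3 tumours 1, 2 and 3, against 0.95, 0.88 and 0.82 TPM in shControl tumours 1, 2 and 3, and like Nectin3 it was highest in shST3GAL3 1. It passed the filter on low values only through its shST3GAL3 values, so the lack of overlap adds nothing. Cadm3, an adhesion molecule, was not tested for its low level, and stood at 3.09, 1.66 and 0.7 TPM in shST3GAL3 tumours 1, 2 and 3, against 0.74, 0.33 and 0.36 TPM in shControl tumours 1, 2 and 3, with overlap. Crtam, a receptor of activated T cells and likewise not tested, stood at 1.42, 0.89 and 0.49 TPM in shST3GAL3 tumours 1, 2 and 3, against 0.8, 0.27 and 0.36 TPM in shControl tumours 1, 2 and 3. Both were highest in shST3GAL3 1 and lowest of the shST3GAL3 tumours in shST3GAL3 3. Cadm1, a ligand of CRTAM, was abundant and lowest in shST3GAL3 1, at 116 ± 30.0 TPM in shST3GAL3 and 130 ± 8.70 TPM in shControl tumours.

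Of 10 genes of receptor signalling 0 passed and 4 had an unadjusted p under 0.05, all higher (9.19% of all tested genes). The median log2 fold change was 0.42, with 0.23 without shST3GAL3 1 and 0.63 without shST3GAL3 3. Inpp5d, which encodes the phosphatase SHIP1 that acts at the tail of TIGIT, averaged 32.1 ± 9.92 TPM in shST3GAL3 and 18.2 ± 2.20 TPM in shControl tumours (0.75, SE 0.21). The kinase genes Fyn and Lck averaged 17.4 ± 7.86 and 16.0 ± 5.68 TPM in shST3GAL3 tumours, and 8.68 ± 1.30 and 9.04 ± 0.406 TPM in shControl tumours. These 3 genes were highest in shST3GAL3 1 and, among the shST3GAL3 tumours, lowest in shST3GAL3 3. The widely expressed Ptpn11 (0.08, SE 0.08), Grb2 (-0.02, SE 0.19) and Bag6 (0.06, SE 0.09) had group means close to each other. Of 10 transcription factor genes linked to these receptors 0 passed and 3 had an unadjusted p under 0.05, all higher, beside the same 9.19%. Their median was 0.43 on the log2 scale, 0.19 without shST3GAL3 1 and 0.70 without shST3GAL3 3. Prdm1 (Blimp-1) averaged 6.28 ± 3.37 TPM in shST3GAL3 and 2.54 ± 0.406 TPM in shControl tumours (0.95, SE 0.31), and Tbx21 (T-bet) 2.39 ± 0.804 TPM in shST3GAL3 and 1.23 ± 0.156 TPM in shControl tumours (0.58, SE 0.22). Eomes, a relative of T-bet, averaged 5.24 ± 0.951 TPM in shST3GAL3 and 6.21 ± 0.376 TPM in shControl tumours (-0.22, SE 0.15), and Tox, a factor of chronically stimulated T cells, 1.04 ± 0.515 TPM in shST3GAL3 and 0.84 ± 0.390 TPM in shControl tumours (0.14, SE 0.27).

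**Figure D4:**
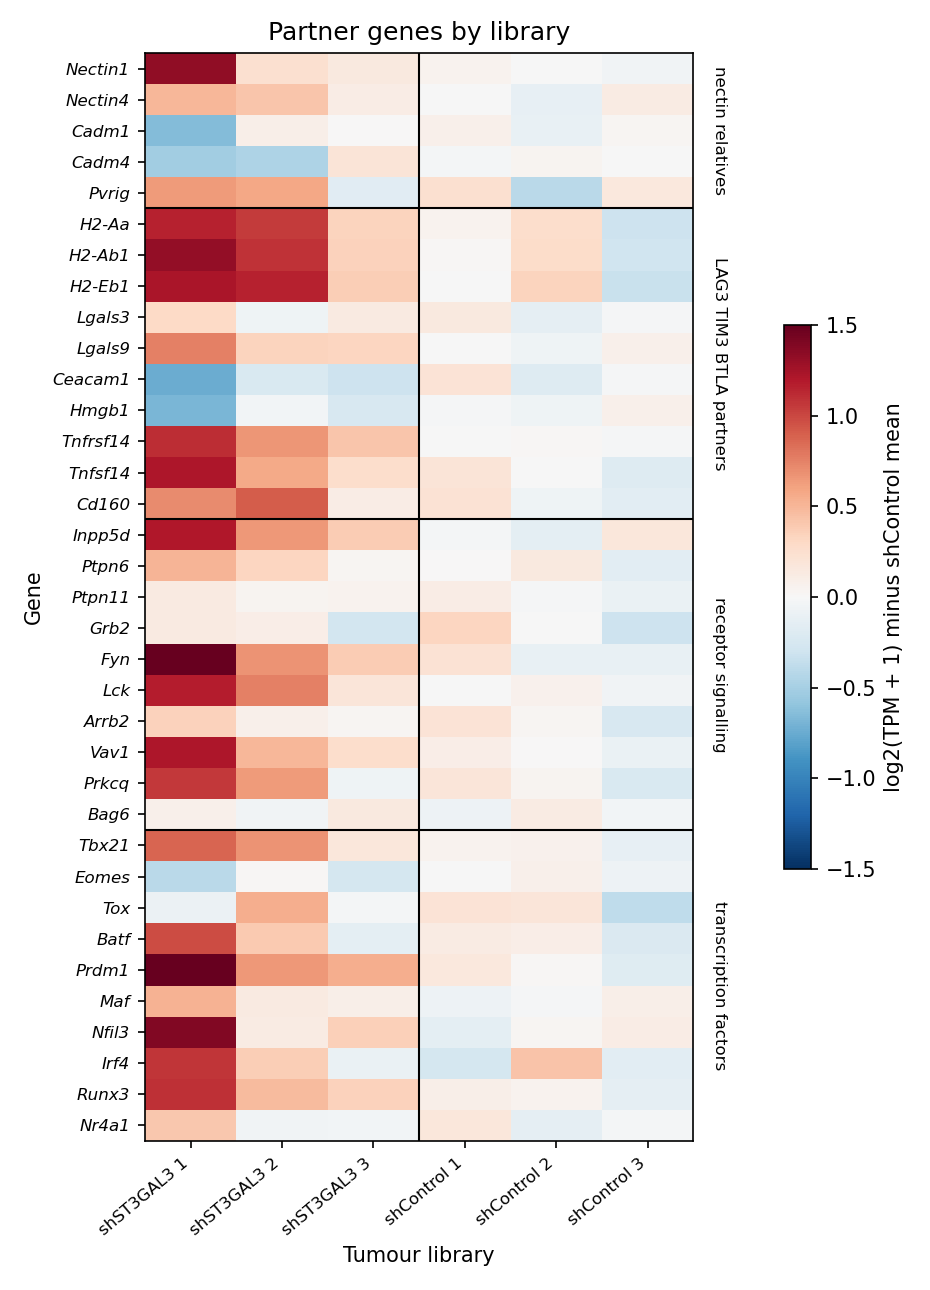
Log2(TPM + 1) minus the shControl mean, by colour (scale ends at 1.5 either way), for the tested genes of 4 lists of partners (rows) in the 3 shST3GAL3 and 3 shControl libraries (columns). Inpp5d, Fyn and Lck are highest in shST3GAL3 1, and Ceacam1, Hmgb1 and Cadm1 are lowest there.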

How the data were processed

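RNA of 6 HM1 tumours was sequenced, and samples were grouped by their titles, 3 shST3GAL3 and 3 shControl. The deposited values are TPM with 2 decimals, judged from the values, and fastp, HISAT, RSEM and the build GRCm39 come from the submitters' processing notes. No source used here gives the annotation release or strand setting. TPM keeps no read number, so depth is unknown and no counting interval was given. Gene lengths are those of the deposited files. The test was limma 3.58.1 (R 4.3.3), with the prior variance following mean level, on log2(TPM + 1) over genes with at least 1 TPM in 3 or more libraries, adjusted by Benjamini-Hochberg at 0.05, and it was checked on simulated data. A fold change on this scale understates the change of low genes. Errors are SD for TPM and moderated SE for fold changes. Named genes were the 9 members, St3gal3, 4 partner lists, cell type markers, the neighbours of Tigit and the 5 genes most like it, of which 1 is not reported here, like 1 B cell marker. The members and lists were chosen with earlier results of these data known. Member transcripts (GENCODE M21) were searched against all others with blastn 2.17.0, and promoters for 5 motifs, both chosen after the values were seen. Alternatives were another pseudocount, filter or scaling, library weights, a replicate block and leaving out each library.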

Additional observations from a re-analysis of the deposited data

How the results depend on the processing

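Over all genes, 0 higher and 1 lower passed in the main limma fit. There was 1 higher gene with a pseudocount of 0.1 or 0.5, and there were 5 higher and 3 lower with library weights, which gave shST3GAL3 1 a weight of 0.204. There were 0 lower genes with at least 1 TPM required in all 6 libraries. Leaving out each library gave 0 higher and between 0 and 2 lower genes, with 0 without shControl 1, 2 or 3 and 2 without shST3GAL3 2 or 3. None of the 9 genes passed in any of the 14 other fits, and the lowest adjusted p of Tigit over them was 0.0761 (library weights) and the highest 0.662. The log2 fold change of Tigit lay between 0.54 and 0.63. That of Cd96 was 0.71 with a pseudocount of 0.1. Of 123 values of the 9 genes under alternatives 7 changed sign, 5 of Nectin2, 1 of Pvr and 1 of Nectin3. The strictest filter removed Cd226, Nectin3 and Btla. Leaving out each library moved the ratio of Tigit to the CD3 mean between the groups from 1.08 to between 0.793 and 1.25. Whether the replicate numbers pair the samples is not known. Correlations of deviations were 0.0145, -0.0799 and 0.0402 for numbers 1, 2 and 3, which cannot decide it with 3 samples a group. The fit with a replicate block called 0 higher and 1 lower gene. TPM gives no depth, so precision rests on 3 samples a group.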
